A study of Mus musculus with 7 samples.

Results

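The 9 genes described here mark successive steps of the oligodendrocyte lineage: Olig1, Olig2, Sox10, Nkx2-2, Pdgfra, Cspg4 and Gpr17 mark precursors and newly committed cells, and Mbp and Mag encode myelin proteins. They were chosen by name, and each was read from its 1 probe set annotated to that gene alone. They are 9 of 19936 genes with such a probe set. RNA came from the whole neocortex of C57BL/6 mice, with 4 samples of the genotype labelled COUP-TFI_Nex-Cre (CKO) and 3 wild-type samples (WT), each on 1 one-colour Affymetrix array. The labels do not spell out the alleles. COUP-TFI is the orphan nuclear receptor encoded by Nr2f1, and Nex-Cre is expressed from the Neurod6 locus in postmitotic glutamatergic neurons, so oligodendrocytes are not the cells in which this Cre is known to act. The sources used here give no age. They also leave unsaid whether the arrays stand for different animals; every p-value therefore covers only the spread among these arrays, part of which may be technical. Arrays are named by genotype and the number in their label.

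Oligodendrocytes wrap axons of the central nervous system in myelin. Their precursors first reach the neocortex by migration from the ventral forebrain, where Olig genes are also active in progenitors, and later arise within the cortex itself. Precursors divide in response to platelet-derived growth factor, pass through a committed stage and then switch on the genes of the myelin sheath, for the most part after birth.

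All values are log2 signals made by the RMA method, which gives every array nearly the same overall distribution (each array had a median of 8.23). Differences are CKO minus WT on that scale. The targeted gene Nr2f1 was at 10.63, 10.79, 10.60 and 10.70 on CKO 1, 4, 34 and 43, and at 11.08, 11.16 and 10.88 on WT 6, 27 and 38. It was thus lower on each CKO array than on each WT array, with a difference of -0.36 (SE 0.074) and a limma adjusted p of 0.435. Whether its probe set lies in a deleted part of the gene is not known here. All 10 tested markers of neocortical projection neurons, among them Tbr1, Neurod2 and Fezf2, lay above the background defined below. The labels name no lot or batch; groups of arrays were inferred from the leading digits of the array identifiers and are called lots here. Lot 1 held CKO 1 and CKO 4, lot 2 held CKO 34, CKO 43, WT 27 and WT 38, and lot 3 held WT 6.

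Signal above background was seen for 7 of the 9 genes. Background was set by 1210 probe sets of olfactory and vomeronasal receptors, genes of the nose, whose median was 5.66 and whose 95th percentile was 7.45. Of the precursor genes, Olig1, Olig2, Sox10, Nkx2-2, Pdgfra and Cspg4 exceeded 7.45 on all 7 arrays, and Gpr17 exceeded it on 0 of them. Of the myelin genes, Mbp exceeded it on all 7 and Mag on 0. Against the stricter 99th percentile of 8.22, Nkx2-2 also fell short, which left 6 genes. Brightness depends on each probe's sequence as well as on RNA, so these statements place each gene against background and do not rank the genes.

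Detection in the wider lineage was counted the same way. Among other precursor genes, 11 of 12 were above the 95th percentile, the exception being Matn4, which encodes a matrix protein. Among genes of committed cells 8 of 10 were above it, the exceptions being Enpp6 and Bcas1, both markers of newly formed oligodendrocytes. Among other myelin genes 13 of 19 were above it. The 6 that were not were Mobp, Opalin, Ermn, Aspa, Gjb1 and Pllp. At the 99th percentile the counts were 10 of 12, 3 of 10 and 5 of 19. In whole tissue these counts do not tell which cells made the RNA. The astrocyte genes Gfap, Aqp4 and S100b were likewise not above background, while 9 of 12 astrocyte genes were.

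Olig2, a basic helix-loop-helix transcription factor needed to form the lineage, had the largest difference of the 9. It was at 9.33, 8.68, 9.03 and 8.83 on CKO 1, 4, 34 and 43, and at 8.60, 8.78 and 8.70 on WT 6, 27 and 38. CKO 1 was highest by 0.296 over CKO 34, and CKO 4 lay below WT 27 and WT 38, so the groups overlapped. CKO averaged 8.97 ± 0.283 (SD, n = 4), and WT averaged 8.69 ± 0.093 (SD, n = 3). CKO minus WT was 0.27 (SE 0.138), a ratio of 1.21, with a 95% interval of -0.04 to 0.59 and a limma adjusted p of 0.729. Without CKO 1 it was 0.15, and within lot 2 it was 0.19. In whole tissue, more cells of a type and more RNA per cell cannot be told apart, which holds for each gene here.

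Olig1, the neighbouring paralog of Olig2 with a role in maturation, did not follow the same order. It was at 8.67, 8.29, 8.45 and 8.33 on CKO 1, 4, 34 and 43, and at 8.35, 8.32 and 8.58 on WT 6, 27 and 38. CKO 1 was again highest, but WT 38 came next, CKO 34 and CKO 43 lay among the WT arrays and CKO 4 lay below them. The difference was 0.02 (SE 0.101, 95% interval -0.21 to 0.25, limma adjusted p 0.971).

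Sox10, which activates myelin genes directly, varied little. Its signal was 8.42, 8.36, 8.31 and 8.30 on CKO 1, 4, 34 and 43, and 8.29, 8.27 and 8.34 on WT 6, 27 and 38. The groups overlapped, with a difference of 0.05 (SE 0.044, 95% interval -0.05 to 0.15, limma adjusted p 0.806). Nkx2-2, a homeodomain factor that times differentiation, was at 7.57, 7.53, 7.57 and 7.53 on CKO 1, 4, 34 and 43, and at 7.49, 7.52 and 7.48 on WT 6, 27 and 38. It was the only member whose groups did not overlap, with each CKO array above each WT array by a narrow margin. Its difference was 0.05 (SE 0.035, limma adjusted p 0.752). Over all 16144 genes tested, 8.38% had groups without overlap, 5.39% with CKO higher and 2.99% with CKO lower, so 1 of 9 is close to that background.

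**Figure D1:**
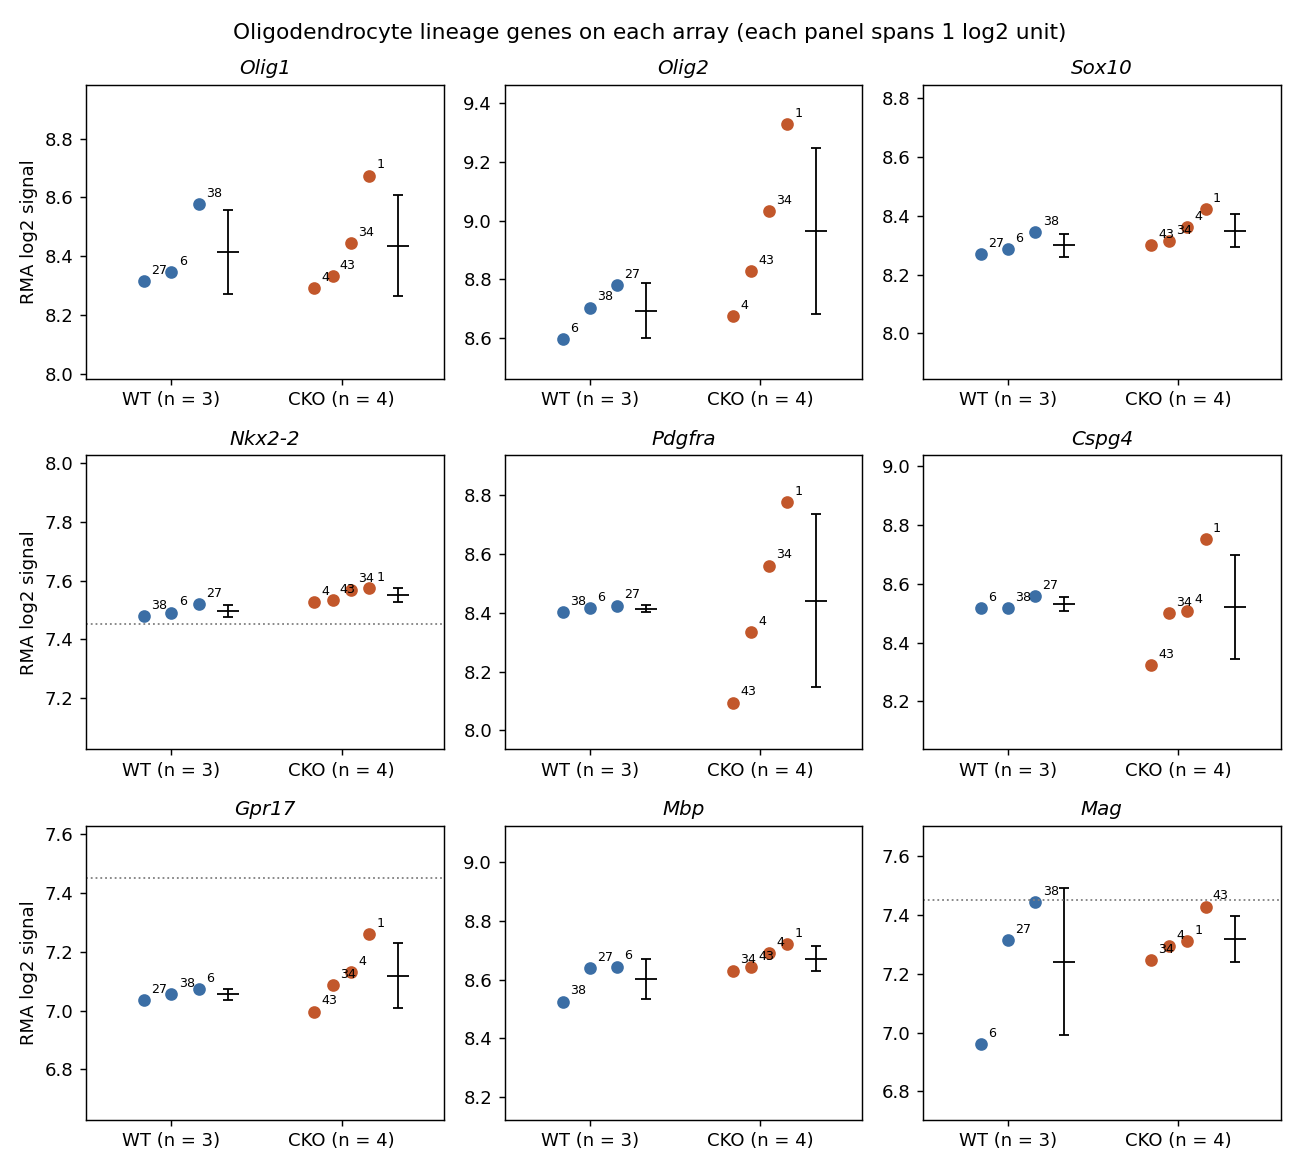
RMA log2 signal (vertical axis) of each of the 9 genes on the 3 WT and 4 CKO arrays; points are arrays with their number, the bar and whiskers beside them are the mean and SD, each panel spans 1 log2 unit, and the dotted line is the background level of 7.45 where it falls within reach of the panel. CKO 1 is the highest array in every panel except Mag, and the WT arrays of Pdgfra, Cspg4 and Gpr17 lie close together between spread CKO arrays.

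The receptor genes of precursors differed more within CKO than between genotypes. Pdgfra encodes the receptor for platelet-derived growth factor A, the main mitogen of precursors, and is also made by meningeal fibroblasts. It was at 8.78, 8.33, 8.56 and 8.09 on CKO 1, 4, 34 and 43, and at 8.42, 8.42 and 8.40 on WT 6, 27 and 38. The WT arrays were nearly identical, and the CKO arrays lay on both sides of them, 2 above and 2 below. The SD was 0.294 in CKO (n = 4) and 0.011 in WT (n = 3). The means of 8.44 and 8.41 gave a difference of 0.03 (SE 0.139, 95% interval -0.29 to 0.35, limma adjusted p 0.975).

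Cspg4 encodes the proteoglycan NG2 of precursors, which pericytes also carry. It was at 8.75, 8.51, 8.50 and 8.32 on CKO 1, 4, 34 and 43, and at 8.52, 8.56 and 8.52 on WT 6, 27 and 38. CKO 1 lay above the WT arrays and the other CKO arrays below them. The SD was 0.176 in CKO (n = 4) and 0.024 in WT (n = 3), and the difference was -0.01 (SE 0.088, 95% interval -0.21 to 0.19, limma adjusted p 0.982). Gpr17 encodes a G protein-coupled receptor of committed precursors. It was at 7.26, 7.13, 7.09 and 7.00 on CKO 1, 4, 34 and 43, and at 7.07, 7.04 and 7.06 on WT 6, 27 and 38. These values lay below the background level, so they bound the signal rather than measure it. The difference was 0.06 (SE 0.061, limma adjusted p 0.822).

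The sequences upstream of 4 precursor genes are shown because Cspg4 was the member most like Pdgfra across arrays, and Nkx2-2 the member most like Olig2, by the correlation given below. Each is the 250 bases before the annotated start, 5′ to 3′ on the gene's strand, from RefSeq on GRCm38.p6. Windows were drawn for 5 of the 9 genes, these 4 and Mag, and not for Olig1, Sox10, Gpr17 and Mbp. Among the members, starts on a single chromosome were left out. The windows of all genes, used for comparison below, were not limited by chromosome. Capitals mark the E-box CANNTG, the core bound by basic helix-loop-helix factors such as the Olig proteins.
Olig2, chr16:91225300-91225549, plus strand: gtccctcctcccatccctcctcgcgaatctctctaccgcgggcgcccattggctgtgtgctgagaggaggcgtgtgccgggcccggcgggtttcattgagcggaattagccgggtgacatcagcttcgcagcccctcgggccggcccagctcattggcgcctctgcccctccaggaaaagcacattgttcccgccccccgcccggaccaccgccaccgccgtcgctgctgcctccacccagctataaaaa
Nkx2-2, chr2:147186403-147186652, minus strand: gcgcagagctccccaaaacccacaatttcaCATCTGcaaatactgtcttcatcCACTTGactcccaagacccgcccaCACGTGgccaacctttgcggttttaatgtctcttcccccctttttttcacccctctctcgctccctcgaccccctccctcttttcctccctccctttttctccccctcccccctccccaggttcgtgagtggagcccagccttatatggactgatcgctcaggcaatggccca
Pdgfra, chr5:75152001-75152250, plus strand: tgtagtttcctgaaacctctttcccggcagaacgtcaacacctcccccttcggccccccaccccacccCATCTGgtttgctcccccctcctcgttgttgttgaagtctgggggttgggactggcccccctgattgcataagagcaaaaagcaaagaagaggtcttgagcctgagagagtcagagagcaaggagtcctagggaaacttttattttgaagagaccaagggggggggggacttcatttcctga
Cspg4, chr9:56864854-56865103, plus strand: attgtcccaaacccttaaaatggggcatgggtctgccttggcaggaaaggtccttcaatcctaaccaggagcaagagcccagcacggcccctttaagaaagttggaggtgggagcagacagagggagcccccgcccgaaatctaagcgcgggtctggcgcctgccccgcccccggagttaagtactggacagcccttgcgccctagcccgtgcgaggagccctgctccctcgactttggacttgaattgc
The Nkx2-2 window held 3 E-boxes, the Pdgfra window 1 and the other pair 0. Of 32841 windows of that length, 66.2% held at least 1. The Sox core ACAAAG and the nuclear receptor half-site AGGTCA, each searched on both strands, were in 0 of these 4 windows, against 16.5% and 14.0% of all windows. The windows of Mag, which has 3 starts, are not shown. Some of them held ACAAAG, and none held AGGTCA. Such matches describe letters only, and binding was not measured here.

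The myelin genes did not differ between genotypes beyond their spread. Mbp encodes myelin basic protein, which compacts the sheath, and the same gene also makes golli transcripts in neurons and immune cells; its probe set is annotated to several transcripts, which are not told apart here. It was at 8.72, 8.69, 8.63 and 8.64 on CKO 1, 4, 34 and 43, and at 8.64, 8.64 and 8.53 on WT 6, 27 and 38. WT 38 was lowest and the other arrays lay within a narrow band. The difference was 0.07 (SE 0.046, 95% interval -0.04 to 0.17, limma adjusted p 0.753). Mag encodes the adhesion protein of the innermost myelin membrane, facing the axon. It was at 7.31, 7.29, 7.25 and 7.43 on CKO 1, 4, 34 and 43, and at 6.96, 7.32 and 7.45 on WT 6, 27 and 38. WT 6 stood lowest and WT 38 highest, all below background, and the difference was 0.08 (SE 0.106, limma adjusted p 0.863).

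CKO against WT called 0 of the 9 genes at an adjusted p of 0.05 with limma, and 0 at an unadjusted p under 0.05. Over all 16144 genes 4 were called, or 0.0248%, and 1096 had an unadjusted p under 0.05, or 6.79%. The difference was positive for 8 of the 9, where 58.9% of all genes were positive. Within lot 2 it was positive for 4 of the 9 (46.4% of all genes), and without CKO 1 for 6 (54.6%). The median difference was 0.05 for the 7 precursor genes and 0.07 for the 2 myelin genes, beside 0.01 for all genes. The upper ends of the 95% intervals were 0.15 for Sox10, 0.13 for Nkx2-2 and 0.17 for Mbp, and 0.59 for Olig2 and 0.35 for Pdgfra.

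**Figure D2:**
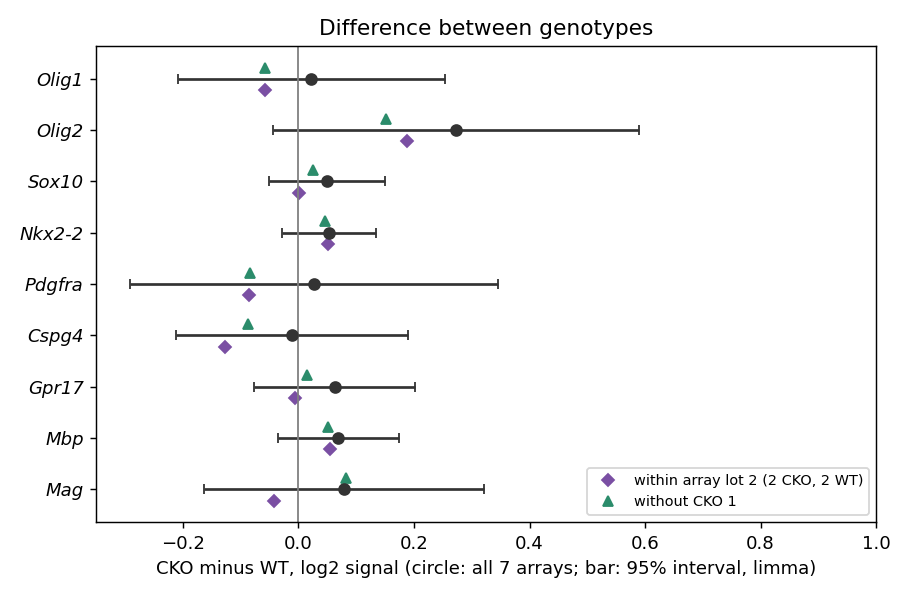
CKO minus WT in log2 signal (horizontal axis) for each gene; circles and bars are the limma difference over 7 arrays and its 95% interval, diamonds the difference within lot 2 and triangles the difference without CKO 1. Every interval includes 0, and the Pdgfra difference goes from 0.03 to -0.09 within lot 2 and -0.08 without CKO 1.

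A single array, CKO 1, was the highest for all 7 precursor genes and for Mbp. It was the highest array for 17.7% of all genes tested. It was the highest for 4 of 12 other precursor genes, 3 of 8 genes of committed cells and 6 of 17 other myelin genes. The mean of the 7 precursor genes, each taken relative to its own mean over the 7 arrays, was 0.23 on CKO 1, -0.05 on CKO 4, 0.05 on CKO 34 and -0.11 on CKO 43. It was -0.06, -0.04 and -0.01 on WT 6, 27 and 38. The 3 WT arrays thus lay within the range of the CKO arrays. The precursor mean differed between genotypes by 0.07 over all arrays, by 0.0012 without CKO 1, by 0.115 without CKO 43 and by -0.0054 within lot 2. Leaving out Gpr17, which was not above background, gave 0.07 over all arrays, -0.0011 without CKO 1, 0.117 without CKO 43 and -0.0053 within lot 2. CKO 4, of the same lot as CKO 1, ranked next after CKO 1 for Sox10, Gpr17 and Mbp, and was the lowest array for Olig1 and next to lowest for Olig2 and Pdgfra.

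Precursor and myelin genes were set beside each other across arrays with Mbp alone, since Mag was not above background on any array. The 6 precursor genes above background minus Mbp, each relative to its own mean, gave 0.16, -0.11, 0.07 and -0.11 on CKO 1, 4, 34 and 43. On WT 6, 27 and 38 the values were -0.07, -0.03 and 0.11. CKO arrays lay on both sides of the WT arrays. CKO averaged 0.00024 ± 0.137 (SD, n = 4) and WT averaged -0.00032 ± 0.095 (SD, n = 3). The gap between genotypes was 0.00055, moved to -0.05 without CKO 1, to 0.04 without CKO 43 and to -0.06 within lot 2, and so had no settled direction. This choice of genes was made after the data were seen.

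Within genotypes, the 6 precursor genes above background all had a larger SD among CKO than among WT arrays, and Mbp did not. Of all genes, 30.8% had the larger SD in CKO. The same was true of 5 of 12 other precursor genes and 2 of 8 genes of committed cells. It also held for 8 of 11 ventral progenitor and interneuron, 8 of 10 striatal, 4 of 6 meningeal fibroblast and 6 of 10 microglial genes. For mural, endothelial, astrocyte, radial glia and projection neuron genes the counts were 5 of 10, 4 of 9, 4 of 12, 2 of 7 and 1 of 10. The differences between these counts were not tested. The ratio of SDs was 25.7 for Pdgfra, a value reached by 0.0867% of genes, 7.34 for Cspg4 (0.892%) and 3.04 for Olig2 (5.18%). It was closer to even for Sox10 at 1.42 (19.3%), Olig1 at 1.20 (24.4%) and Nkx2-2 at 1.14 (26.2%). Counting Gpr17 as well, 7 of 7 had the larger SD in CKO. That count was 5 of 7 without CKO 1, against 28.7% of all genes, and 5 of 7 without WT 6, against 39.5%. Without WT 38 it was 7 of 7, against 47.2% of all genes. Within lot 2 alone, Pdgfra differed by 0.466 between the CKO arrays and by 0.0226 between the WT arrays. The CKO gap was also the larger for Olig2 (0.204 beside 0.076) and Cspg4 (0.177 beside 0.041). For Olig1, Sox10 and Nkx2-2 the WT gap was the larger. There, CKO 34 minus CKO 43 was 0.114, 0.012 and 0.037, and WT 27 minus WT 38 was -0.262, -0.075 and 0.042. With 4 and 3 arrays an SD is itself imprecise, and these ratios were not tested.

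**Figure D3:**
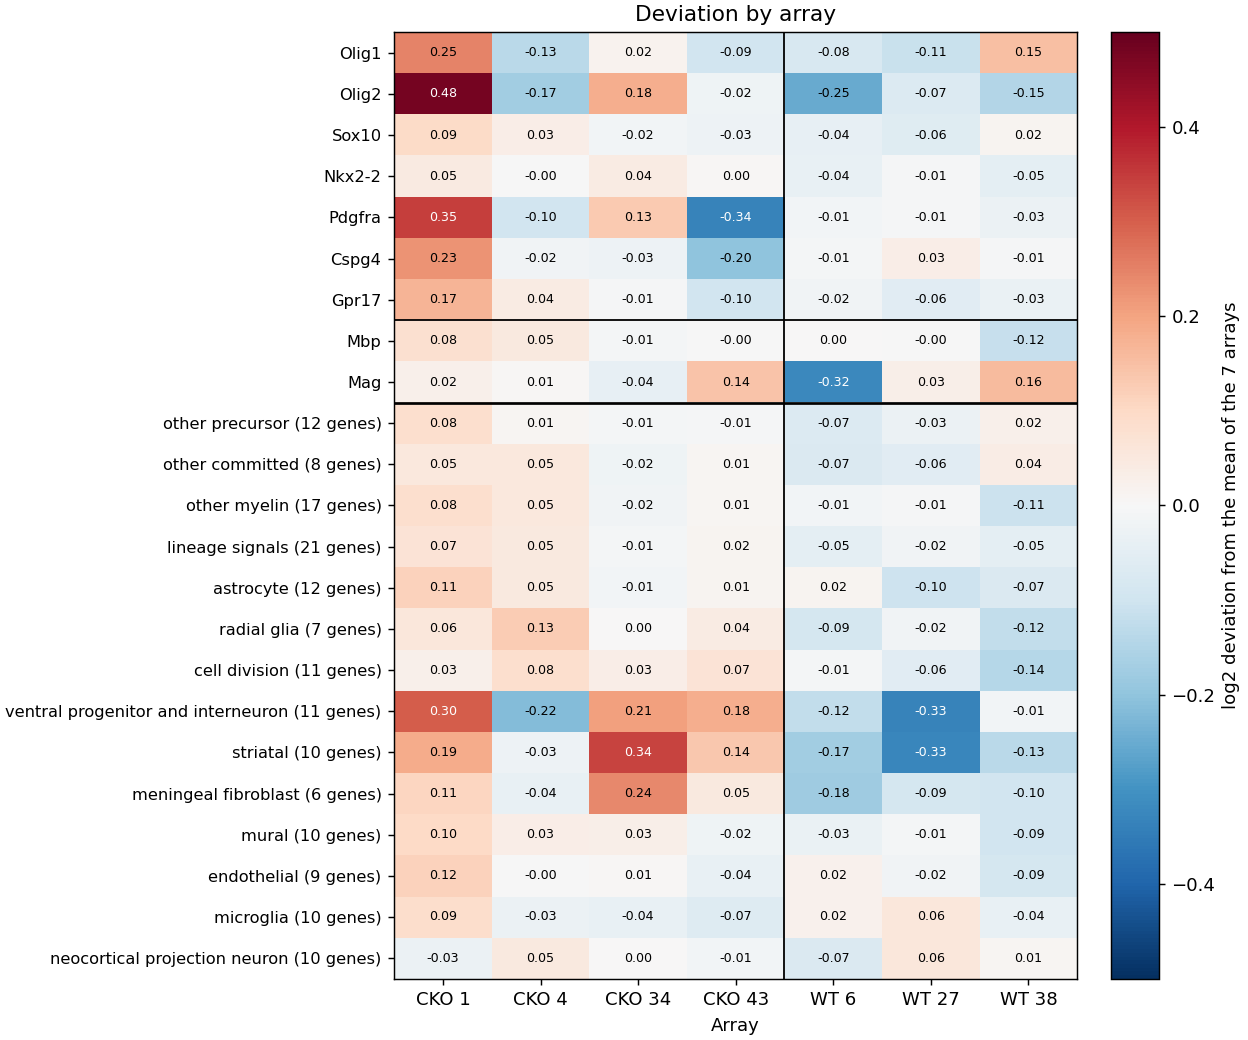
Log2 deviation from the mean of the 7 arrays (colour and printed value) for each gene and for the mean of each marker list, by array. CKO 1 is above the mean for all 7 precursor genes and for each list but the projection neurons, whose mean is -0.03 there.

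Markers of other cell types moved on the same arrays, and their part in the values above was not tested. Genes of ventral progenitors and interneurons (Dlx1, Dlx2, Gsx2 and others), which share their origin with early precursors, had mean deviations of 0.30, -0.22, 0.21 and 0.18 on CKO 1, 4, 34 and 43. On WT 6, 27 and 38 they had -0.12, -0.33 and -0.01. All 11 measured were above background, 10 of 11 were positive (median 0.31), and 0 passed the adjustment with limma (3 had an unadjusted p under 0.05). CKO 1 was the highest array for 8 of the 11. CKO 4 was next to lowest in the list mean and for Olig2. WT 27 was lowest in the list mean but the highest WT array for Olig2. The mean level of the list ran from 9.43 to 9.96 in CKO and from 9.32 to 9.64 in WT. Striatal genes, of which 10 of 10 were positive with a median of 0.26 and 7 had an unadjusted limma p under 0.05, had 0.19, -0.03, 0.34 and 0.14 on CKO 1, 4, 34 and 43, and -0.17, -0.33 and -0.13 on the WT arrays in the same order.

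Fibroblast and vascular markers are given because meningeal fibroblasts also make Pdgfra and pericytes also carry NG2. The part of such cells in the Pdgfra and Cspg4 values was not tested. Of 8 meningeal fibroblast genes 5 were above background, and Lum, Slc6a13 and Ogn were not. The 6 tested were all positive, with a median of 0.22, 0 calls and 3 at an unadjusted limma p under 0.05. They averaged 0.11, -0.04, 0.24 and 0.05 on CKO 1, 4, 34 and 43, and -0.18, -0.09 and -0.10 on WT 6, 27 and 38. The mean level of all 8 genes, with Lum and Ogn that did not pass the filter, was 7.93 to 8.28 in CKO and 7.81 to 7.89 in WT, without overlap. This was not particular to fibroblast genes. The mean level of striatal genes was 8.38 to 8.76 in CKO and 8.09 to 8.31 in WT. Those of radial glia, cell division and lineage signal genes did not overlap either. Those of the ventral, mural, endothelial, microglial, astrocyte, projection neuron and other lineage lists did overlap. Mural cell genes, of which 9 of 10 were above background, averaged 0.10, 0.03, 0.03 and -0.02 on the CKO arrays and -0.03, -0.01 and -0.09 on the WT arrays. CKO 1 was the highest array for 6 of 10 mural, 6 of 9 endothelial and 5 of 10 microglial genes, and for 0 of 10 projection neuron genes and 0 of 7 radial glia genes.

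Genes of progenitors and astrocytes, cells related to the lineage, also had mostly positive differences without any call. Over all genes, 58.9% were positive and 6.79% had an unadjusted limma p under 0.05. These shares belong beside the counts here, those of the marker lists above and those of the lineage lists below. Of 11 cell division genes, 11 were positive with a median of 0.13, and 6 had an unadjusted limma p under 0.05. Of 7 radial glia genes, 7 were positive with a median of 0.15 and 3 at that p. Of 12 astrocyte genes, 11 were positive with a median of 0.10 and 2 at that p. These medians stand beside 0.05 for the precursor members and 0.03 to 0.07 for the other lineage lists, and their part in those values was not tested. WT 38 was the lowest array for 8 of 11 cell division, 4 of 7 radial glia and 7 of 12 astrocyte genes, against 30.8% of all genes. The astrocyte mean deviation overlapped between genotypes, with 0.02 on WT 6 and -0.01 on CKO 34.

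Other genes of the lineage, from lists chosen by their known role, gave no calls. Of 12 other precursor genes, 8 were positive, the median was 0.03, and 2 had an unadjusted limma p under 0.05. Sox8, a relative of Sox10, was at 10.53, 10.52, 10.47 and 10.56 on CKO 1, 4, 34 and 43, and at 10.32, 10.40 and 10.25 on WT 6, 27 and 38. Each CKO array lay above each WT array, as for no other of the 12 genes and for 5.39% of all genes. CKO 43 rather than CKO 1 was highest. The difference was 0.20 (SE 0.046, limma adjusted p 0.648). Bcan, a matrix proteoglycan also made by astrocytes, differed by 0.22 (SE 0.075, limma adjusted p 0.711) and Megf11 by 0.08 (SE 0.066).

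Of 8 tested genes of committed cells, 5 were positive with a median of 0.05, and 1 had an unadjusted limma p under 0.05. This was Bmp4, a growth factor made by committed precursors and by other cells, at 8.01, 7.95, 7.95 and 7.98 on CKO 1, 4, 34 and 43, and at 7.67, 7.77 and 7.87 on WT 6, 27 and 38. Its groups did not overlap, with a difference of 0.20 (SE 0.051, limma adjusted p 0.683). The homeobox gene Nkx6-2 differed by 0.10 (SE 0.068) and the receptor gene Gpr37 by 0.06 (SE 0.038). For Gpr37, too, each CKO array lay above each WT array, by a narrow margin. This made 2 of the 8 genes without overlap and with CKO higher, against 5.39% of all genes. Of 17 tested myelin genes beside the pair above, 14 were positive with a median of 0.07, and 1 had an unadjusted p under 0.05. Pllp, a proteolipid not above background here, differed by 0.16 (SE 0.070), Mal, another proteolipid of myelin, by 0.16 (SE 0.072) and the tetraspanin gene Tspan2 by 0.21 (SE 0.097). These 3 had limma adjusted p-values of 0.726. Of the 17, only Anln had groups without overlap, with CKO higher. Cnp, an enzyme of non-compact myelin, was above background on all arrays, from 8.86 to 9.12 in CKO and from 8.71 to 8.92 in WT. On WT 38 the list averaged -0.11, the lowest of the 7 arrays, as for Mbp.

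Signals that guide the lineage included ligands, their receptors and inhibitors of differentiation. Of 21 tested, 16 were positive with a median of 0.06, 0 passed the adjustment and 5 had an unadjusted limma p under 0.05. Over all genes, 58.9% were positive and 6.79% had such a p. Pdgfa, the ligand of the Pdgfra receptor, differed by -0.05 (SE 0.062, limma adjusted p 0.863). Erbb3, a neuregulin receptor of the lineage, was at 7.72, 7.62, 7.59 and 7.60 on CKO 1, 4, 34 and 43, and at 7.46, 7.14 and 7.54 on WT 6, 27 and 38. Each CKO array lay above each WT array, with a difference of 0.25 (SE 0.090, limma adjusted p 0.722). Gli2, an effector of sonic hedgehog, which induces Olig genes, differed by 0.17 (SE 0.065, limma adjusted p 0.722). Sox5, which restrains differentiation of precursors and is also abundant in deep-layer neurons, differed by -0.14 (SE 0.049, limma adjusted p 0.711), with each CKO array below each WT array. Of the 21 genes, 2 had groups without overlap with CKO higher, Erbb3 and Notch1, and 1 with CKO lower, Sox5. The shares over all genes were 5.39% and 2.99%.

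**Figure D4:**
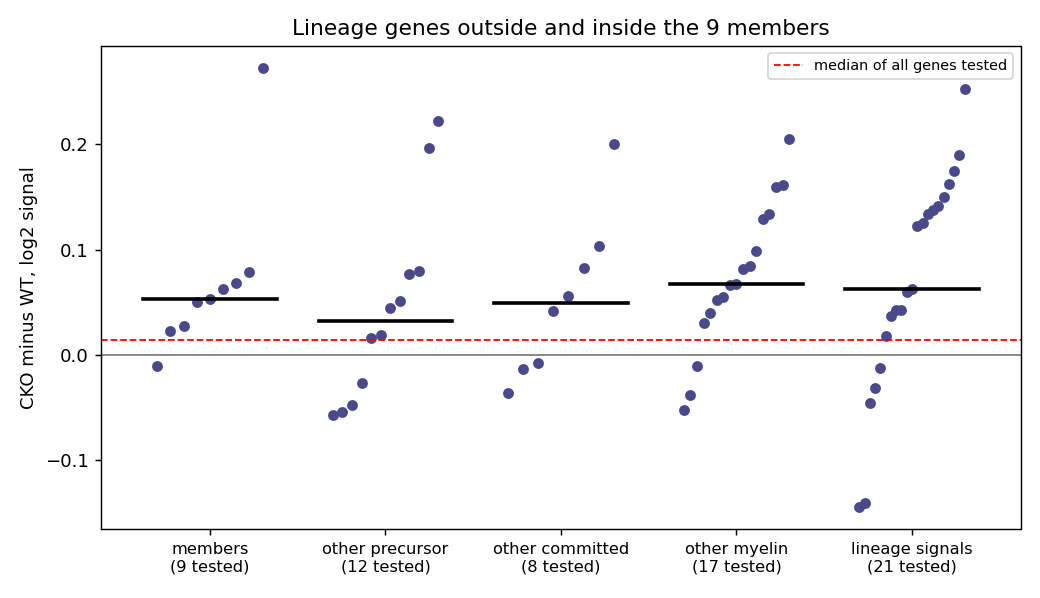
CKO minus WT in log2 signal (vertical axis) for each tested gene of the 9 members and of 4 lists of other lineage genes; points are genes, black bars the median of each list, and the dashed line the median of all genes. The medians lie between 0.03 and 0.07, beside 0.01 for all genes.

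Likeness in pattern was measured by Pearson's r over the 7 arrays against 16143 other genes, as a description. For Pdgfra the closest were Emc7, a subunit of a membrane insertion complex (r 0.955), the lysosomal amidase gene Naaa (0.948) and the adenylyl cyclase gene Adcy2 (0.947); Cspg4 ranked 7 (0.924) and Gpr17 75 (0.821). For Olig2 they were the clock factor gene Arntl (0.961), the diacylglycerol kinase gene Dgkk (0.948) and the insulin receptor adaptor gene Irs2 (0.932); Nkx2-2 ranked 54 (0.861), Pdgfra 527 (0.701) and Olig1 612 (0.686). For Mbp they were the co-chaperone gene Dnajc12 (0.992), the mitotic kinase gene Nek2 (0.990) and the RNA export gene Nxt1 (0.989), while Mag ranked 13066 (-0.285). Without CKO 1, the r of Pdgfra with Cspg4 was 0.825, and that of Olig2 with Nkx2-2 was 0.851. Without CKO 1 and CKO 43, the arrays farthest from the median of Pdgfra, its r with Cspg4 was -0.235, so the likeness of this pair rests on those arrays. Without CKO 1 and CKO 34, that of Olig2 with Nkx2-2 was 0.606. By rank over the 7 arrays, Spearman's rho was 0.607 for Pdgfra with Cspg4 and 0.821 for Olig2 with Nkx2-2.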

How the data were processed

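Total RNA extracted with Trizol (0.2 µg, RNA integrity number 10 in all 7 samples) was labelled with biotin. The authors deposited log2 signals per probe set, for which the submitters' processing notes name RMA and Affymetrix Expression Console; the sources used here give neither software version nor genome build. The platform annotation gave 1 gene symbol for 21786 of 35468 probe sets, several for 1621 and none for 12061; only the first were used. Probe sets with a mean below the 25th percentile (6.84) were left out, and the brightest stood for each gene, which left 16144 genes and all 9 members. CKO was compared with WT by limma 3.58.1 in R 4.3.3 (no covariate; degrees of freedom 5 residual, 3.28 prior), with Benjamini-Hochberg adjustment at 0.05 over all genes; errors are its standard errors (SE). The fit was tested on simulated data. The number of arrays limits the precision.

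The members and gene lists were chosen with earlier results of these data known. Named genes were the members, Nr2f1, the 3 smallest p-values of each wider lineage list, and the 3 genes most like Olig2, Pdgfra and Mbp; others, such as Cnp and Pdgfa, were chosen after their values were seen. Alternatives were another normalization, filter, probe set summary, variance model, array weights, inferred array lot, and leaving out each array; spread without each array and means over genes above background were added after seeing the data. Figures used matplotlib 3.10.9.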

Additional observations from a re-analysis of the deposited data

How the results depend on the processing

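All 9 members stayed above an adjusted p of 0.05 with limma under each of 17 alternatives; the smallest was 0.508, for Olig2 without WT 27. The differences of Olig2, Sox10, Nkx2-2 and Mbp kept their sign throughout: Olig2 ran from 0.15 to 0.37, Sox10 from 0.00096 to 0.072, Nkx2-2 from 0.044 to 0.065 and Mbp from 0.030 to 0.089. Signs turned within lot 2 and, with the same difference by construction, with lot as a fixed block, for Olig1 (-0.058), Pdgfra (-0.086), Gpr17 (-0.0058) and Mag (-0.043), and for Pdgfra with array weights (-0.059). Leaving out single arrays moved Olig1 between -0.057 and 0.10, Pdgfra between -0.084 and 0.14, Cspg4 between -0.088 and 0.055, and Mag between -0.061 and 0.18; the cause was not tested. Lots were inferred from the array identifiers. Over all genes, the 4 calls became 1 with array weights, 0 with lot as a fixed block or lot 2 alone (611 and 486 at an unadjusted limma p under 0.05), stayed at 4 in number with lot as a random block, where no member turned sign, and 1 to 6 without single arrays. The precursor mean ran from 0.0012 to 0.115, the mean of Mbp and Mag from 0.014 to 0.105, and precursor minus myelin from -0.066 to 0.054, without single arrays; Mag and Gpr17 in them were not above background. No paired analysis was possible because the groups share no replicate number. Background correction could not be varied from values already summarised by RMA.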
